A study of Mus musculus with 6 samples.

Results

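The genes described here are the nuclear genes for the subunits of the mitochondrial respiratory chain and ATP synthase, grouped by complex I to V. They were chosen by name and not by any measured value: symbols that begin with Ndufa, Ndufb, Ndufc, Ndufs, Ndufv, Uqcr, Cox4 to Cox8 or Atp5, together with Sdha, Sdhb, Sdhc, Sdhd and Cyc1, without the Ndufaf assembly factors and without pseudogenes. The rule gave 89 genes in the RefSeq gene table, of which 85 were on the array by 105 probes, out of 22911 named genes and 56605 probes in all. No probe was matched to Cox5b, Ndufb1, Ndufb4b or Ndufb4c, which were not analysed here. Of the 85 genes, 82 were well above background on all 6 arrays and were tested, and Cox7b2, Cox8b and Cox8c were not.

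The samples were livers of 6 male mice, 3 with a liver-specific knockout of Elovl6 (LKO) and 3 controls, whose titles name them only as Flox. Elovl6 encodes a fatty acid elongase that lengthens saturated and monounsaturated chains. Every mouse, control or LKO, had eaten the sucrose-rich diet D11725 for 14 days and was fasted for 4 hr before the liver was taken, so no group without the diet enters these comparisons. The labels do not name the promoter that drives the recombinase, nor the age or strain of the mice. RNA of each liver was hybridised to 1 one-colour Agilent array, and the comparison asks how the mRNA of each complex differs between LKO and control liver.

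Complex I oxidises NADH and complex II oxidises succinate, and both pass the electrons through ubiquinone to complex III. Complex III hands them to cytochrome c, complex IV (cytochrome c oxidase) reduces oxygen with them, and complex V (ATP synthase) uses the proton gradient that complexes I, III and IV build to make ATP. Apart from complex II, whose genes are all nuclear, each complex joins subunits encoded in the nucleus with subunits encoded in mitochondrial DNA. Hepatocytes are rich in mitochondria, which serve fatty acid oxidation, the urea cycle and gluconeogenesis.

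Signals are given as a multiple of each array's 75th percentile, which lay between 265 and 298 processed signal units. Elovl6 was at 21.3, 43.0 and 22.8 times that percentile in control 1, 2 and 3 and at 0.228, 0.334 and 0.364 in LKO 1, 2 and 3, a log2 difference of -6.51 ± 0.30 (SE) with an adjusted p of 0.00279 (limma, Benjamini-Hochberg over 14171 genes), and the arrays thus matched their labels. Hepatocyte markers summed to between 6170 and 6382 in the control mice and between 6478 and 6802 in LKO. All 12 of 12 were measured, and 10 were higher and 2 lower in LKO. Their median log2 difference was 0.07, with Fgb at 0.37 and Ambp at 0.22. All 12 Kupffer cell and macrophage markers were higher in LKO, beside 7204 of all 14171 genes. Their median log2 difference was 0.22, with summed signals of 99.2 to 137 in controls against 122 to 149 in LKO. The 5 tested erythroid markers were also all higher, with sums of 496 to 707 against 552 to 884. Of the 6 tested neutrophil markers, 5 were higher, with a median log2 difference of 0.73. S100a8 measured 0.211, 0.463 and 0.348 in control 1, 2 and 3 and 0.731, 1.81 and 3.99 in LKO 1, 2 and 3 (2.43 ± 0.61, limma adjusted p of 0.261), S100a9 was at 2.21 ± 0.59 and Retnlg at 1.23 ± 0.33. These 3 genes had every LKO mouse above every control, beside 8.11% of all genes. The summed signal of the 9 neutrophil markers overlapped, at 62.3 to 74.6 in controls and 68.6 to 82.0 in LKO, most of it from Csf3r. The part of these marker differences in the results below was not tested. Control 3 stood apart in muscle and adipose markers: the 10 muscle markers summed to 17.1 there and to between 1.15 and 1.72 on the other arrays, and the 6 adipose markers to 5.90 there against 1.56 to 3.14. The 3 tested muscle markers were all lower in LKO, with a median log2 difference of -1.19. All arrays came from 1 slide, with the controls and LKO 1 in the first column of array positions and LKO 2 and 3 in the second.

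Subunits of all 5 complexes had lower signals in LKO liver, by a small amount and without any single gene passing the test. Of the 82 genes tested, 71 (86.6%) had a negative log2 difference, beside 49.2% of all 14171 genes, and 11 had a positive one. The median log2 difference was -0.11, which is 1.08-fold lower in LKO, whereas the median of all genes was 0.00. At an unadjusted p under 0.05, 15 subunits were lower, beside 5.6% of all genes, and 0 were higher, beside 5.56%. At an adjusted p under 0.05, 0 of 82 subunits passed, beside 0.0141% of all genes, and the lowest adjusted p was 0.162, for Cox7a1.

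Ranges that did not overlap were common among the subunits. In 48 of 82 (58.5%) every LKO mouse lay below every control mouse, beside 9.21% of all genes, and in 0 of 82 every LKO mouse lay above, beside 8.11%. The subunits are mostly bright probes, so the 1585 genes with a mean log2 level of 4 to 8 above the 75th percentile were set beside the 71 subunits in that range. Of those 1585 genes 45.4% were lower and 13.9% had every LKO mouse below every control, with a median of 0.01. Of the 71 subunits 63 were lower and 45 had every LKO mouse below every control, with a median of -0.11. In bulk liver, fewer cells of a type and less RNA per cell cannot be told apart.

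**Figure D1:**
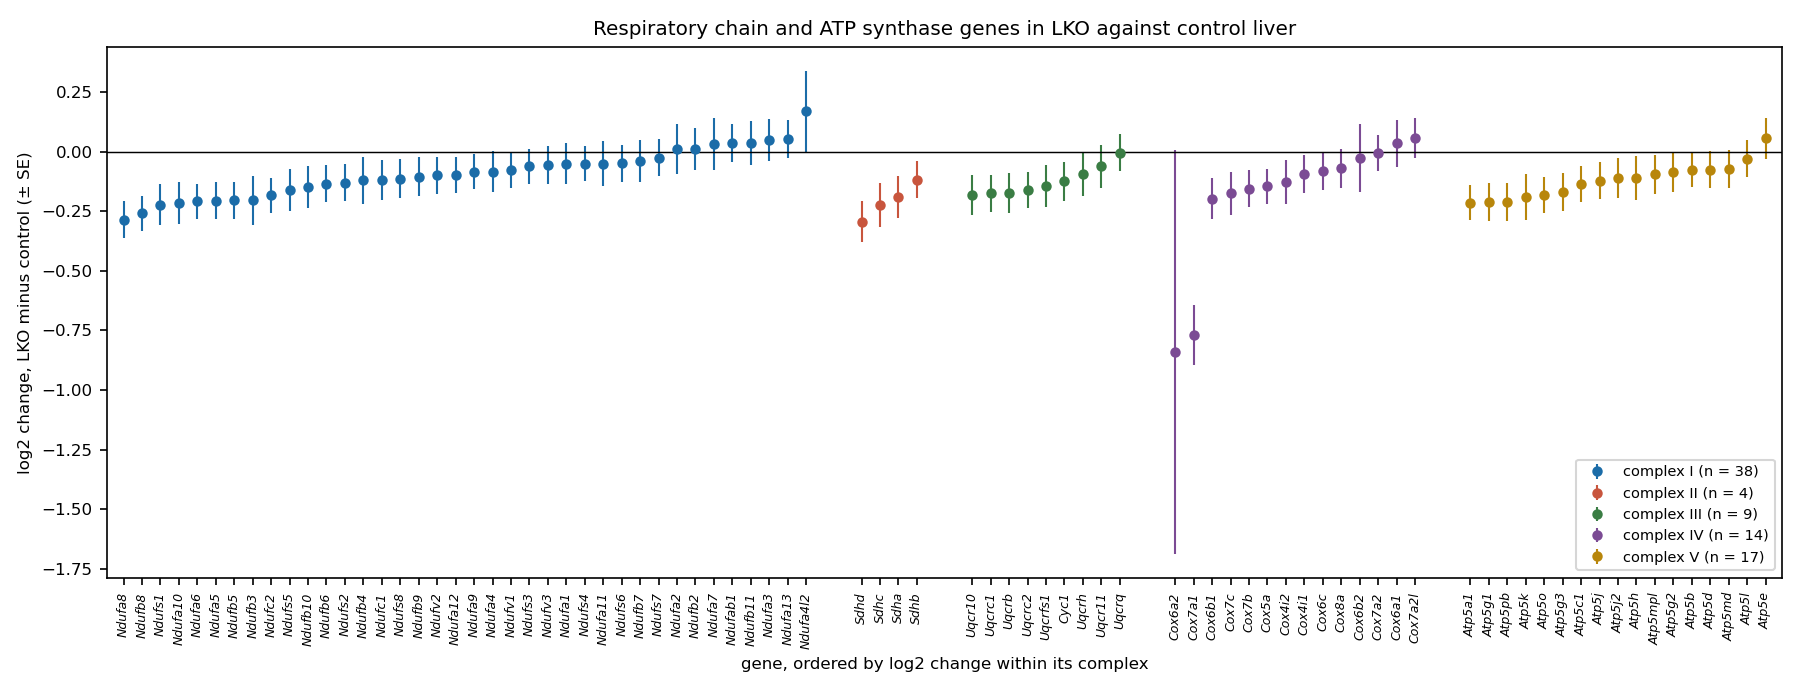
Log2 difference (LKO minus control, 3 mice each) of the 82 tested subunit genes, with bars for the standard error from limma, ordered within each complex. Points of complexes II and III all lie below 0, complex I runs from -0.29 to 0.17, and the long bar is Cox6a2, which was high in control 3 only.

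The median subunit lay below the control mean in each LKO mouse, and least so in LKO 2. Measured against the control mean, the median subunit was at 0.05, -0.03 and -0.03 (log2) in control 1, 2 and 3 and at -0.13, -0.08 and -0.11 in LKO 1, 2 and 3. The same median over all genes tested stayed between -0.02 and 0.02. Control 1 was the highest of the 6 arrays for 54 of the 82 subunits, so the controls were not alike. In LKO 1, 2 and 3, 79, 62 and 69 subunits lay below the control mean, against 11, 57 and 63 in control 1, 2 and 3. By that count LKO 2 was not apart from control 2 and 3. In complex I, 27 of 38 subunits lay below the control mean in LKO 2, against 29 and 30 in control 2 and 3. The complex I medians of these 3 arrays were -0.05, -0.03 and -0.03. LKO 1 shares the slide column of the controls, and LKO 2 and 3 are alone in the other column. A fit with the slide column as a covariate therefore compares LKO 1 by itself with the controls, and it restated that mouse's median of -0.13. In that fit 2 of 82 subunits (2.44%) were lower at an unadjusted p under 0.05, beside 2.48% of all genes, with the single mouse assumed to vary as the others did. The part of array position in the differences was not tested.

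**Figure D2:**
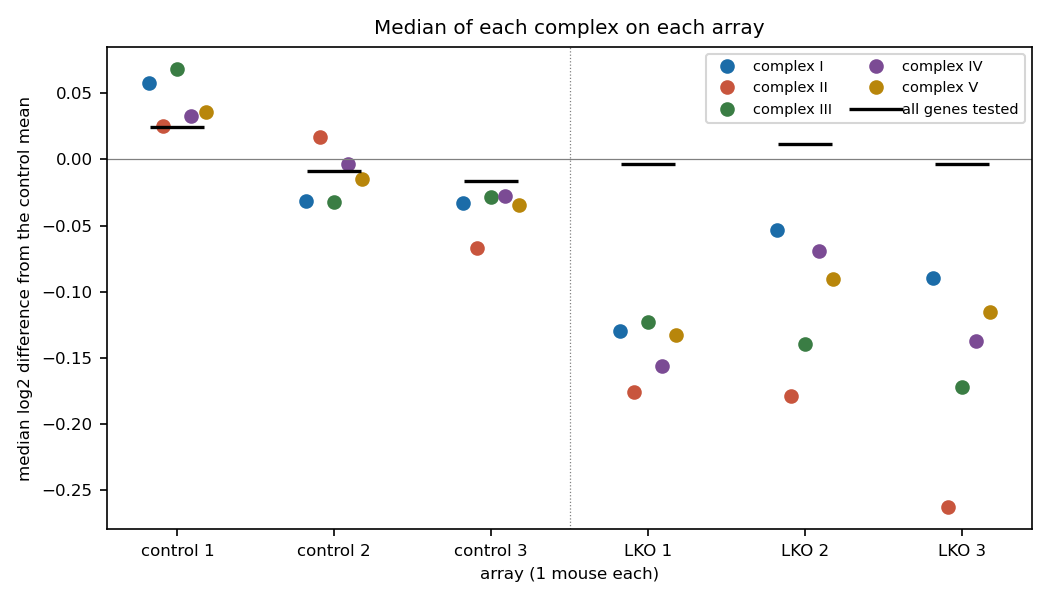
Median log2 difference from the control mean for the genes of each complex (points) and for all genes tested (black bars) on each of the 6 arrays. All 5 complexes lie below the bar of all genes on each LKO array, with complex II lowest at -0.18, -0.18 and -0.26. All 5 also lie below it on control 3, at -0.07 to -0.03 beside -0.02 for all genes. Complexes I, III and V do so on control 2.

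The size of the error bars follows from the fit. The subunits' own pooled standard deviation over the 3 mice of a group had a median of 0.061 (log2), whereas limma's moderated standard deviation, which borrows from all 14171 genes, had a median of 0.101 and was the larger one in 78 of 82 subunits. Under the variant of the fit that lets the spread depend on the level (trend and robust), 25 subunits were lower at an unadjusted p under 0.05, beside 5.74% of all genes, and 0 passed the adjusted threshold, with a lowest adjusted p of 0.0839. With any 1 mouse left out, the count at an unadjusted p under 0.05 was 4 to 8 in place of 15, while the median stayed between -0.13 and -0.08. That count was 4 (4.88%) without control 2, beside 4.28% of all genes, 5 (6.1%) without LKO 3, beside 4.32%, 6 (7.32%) without control 3, beside 4.93%, and 6 without LKO 1, beside 6.22%. It was 7 (8.54%) without control 1, beside 5.34%, and 8 (9.76%) without LKO 2, beside 4.15%. With fewer mice the share was thus near that of all genes in several fits. An exact permutation test of 3 against 3 mice cannot go below 0.1 for a single gene.

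**Figure D3:**
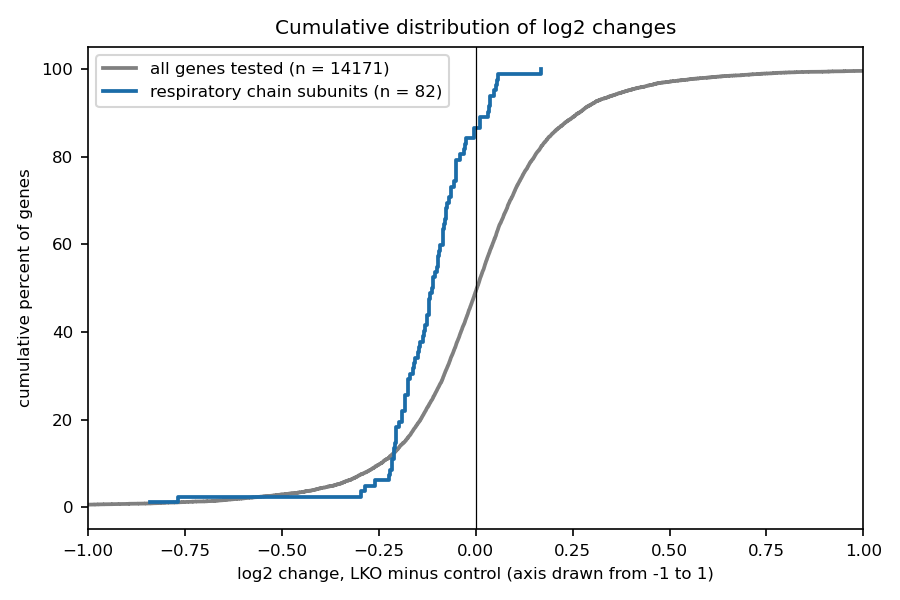
Cumulative percent of genes by log2 difference (LKO minus control) for the 82 subunits and for all 14171 genes tested, drawn from -1 to 1. The curve of the subunits lies to the left through the middle of the range and has reached 86.6% at 0, where that of all genes is at 49.2%.

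Promoter sequences are shown for 5 subunits that the account below turns on, 1 or more from each complex that held genes at an unadjusted p under 0.05, because subunit genes of this chain are known to share binding sites of a few general regulators. Each line holds the 250 bases before the start of the gene, 5′ to 3′ on the gene's strand, from RefSeq on GRCm38.p6. Capitals mark exact matches, on either strand, to the motifs named further below. Ndufa8 lies on the minus strand at chr2:36049339-36049588, Ndufb8 on the minus strand at chr19:44555443-44555692, Sdhd on the minus strand at chr9:50603850-50604099, Cox7a1 on the plus strand at chr7:30183921-30184170 and Atp5g1 on the minus strand at chr11:96075632-96075881.
Ndufa8: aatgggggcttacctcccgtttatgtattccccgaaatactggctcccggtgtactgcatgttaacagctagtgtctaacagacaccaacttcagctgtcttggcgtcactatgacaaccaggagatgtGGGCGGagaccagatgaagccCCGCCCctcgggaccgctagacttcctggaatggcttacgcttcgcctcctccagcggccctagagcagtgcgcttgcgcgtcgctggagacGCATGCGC
Ndufb8: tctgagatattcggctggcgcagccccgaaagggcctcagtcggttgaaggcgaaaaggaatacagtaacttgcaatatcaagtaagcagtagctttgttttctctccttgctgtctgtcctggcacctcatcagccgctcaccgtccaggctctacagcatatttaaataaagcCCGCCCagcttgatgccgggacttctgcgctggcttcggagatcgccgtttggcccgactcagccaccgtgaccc
Sdhd: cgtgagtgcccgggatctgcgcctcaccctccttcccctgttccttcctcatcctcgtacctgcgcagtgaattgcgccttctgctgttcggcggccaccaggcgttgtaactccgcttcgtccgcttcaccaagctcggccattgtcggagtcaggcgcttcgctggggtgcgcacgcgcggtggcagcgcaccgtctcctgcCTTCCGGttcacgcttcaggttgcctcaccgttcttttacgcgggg
Cox7a1: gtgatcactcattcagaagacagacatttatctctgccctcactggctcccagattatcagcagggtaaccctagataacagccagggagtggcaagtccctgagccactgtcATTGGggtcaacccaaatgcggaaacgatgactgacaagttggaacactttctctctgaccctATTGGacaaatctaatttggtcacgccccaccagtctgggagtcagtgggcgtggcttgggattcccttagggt
Atp5g1: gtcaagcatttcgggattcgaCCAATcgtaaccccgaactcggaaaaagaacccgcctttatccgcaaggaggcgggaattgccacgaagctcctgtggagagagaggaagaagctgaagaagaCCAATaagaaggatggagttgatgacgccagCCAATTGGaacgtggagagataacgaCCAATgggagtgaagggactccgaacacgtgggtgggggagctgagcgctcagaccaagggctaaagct

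In complex I, 30 of the 38 tested subunits were lower in LKO and 8 were higher, with a median of -0.09 and a range of -0.29 to 0.17. In 20 of the 38 (52.6%) every LKO mouse lay below every control, beside 9.21% of all genes. At an unadjusted p under 0.05, 8 were lower, beside 5.6% of all genes. The 7 core subunits encoded in the nucleus carry the flavin and the iron-sulfur clusters that take electrons from NADH to ubiquinone: all 7 of 7 were lower, with a median of -0.10, and 5 did not overlap between groups. Of the 31 supernumerary subunits, which surround the core and serve assembly and stability, 23 were lower, with a median of -0.08, and 15 did not overlap. The shares without overlap were 71.4% in the core and 48.4% in the supernumerary subunits, beside the 9.21% of all genes.

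The complex I genes with the smallest p were all supernumerary. Ndufa8, an intermembrane-space subunit with paired cysteine motifs, measured 20.8, 21.1 and 19.8 in control 1, 2 and 3 and 16.6, 16.9 and 17.2 in LKO 1, 2 and 3. The lowest control lay above the highest LKO mouse, and the log2 difference was -0.29 ± 0.08 (SE, n = 3 and 3), with a limma adjusted p of 0.278. Ndufb8, a subunit of the membrane arm often used as a marker of assembled complex I, measured 88.8, 88.0 and 85.2 in the control mice and 72.1, 74.6 and 72.1 in LKO. Its groups were also apart, by -0.26 ± 0.08, with a limma adjusted p of 0.301.

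Ndufa6, a subunit that binds the mitochondrial acyl carrier protein, measured 131, 128 and 132 in the control mice and 112, 111 and 115 in LKO. Ndufb5, of the membrane arm, measured 59.3, 59.8 and 59.7 in the control mice and 51.7, 53.5 and 50.1 in LKO, and its 2 probes gave the same difference of -0.20. In both genes the values were tight within each group and did not overlap, with differences of -0.21 ± 0.07 and -0.20 ± 0.08 (limma adjusted p of 0.384 and 0.400).

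The 8 complex I genes with a positive difference included Ndufa3 and Ndufa4l2. Ndufa3, of the membrane arm, was at 0.05 ± 0.09 by its brighter probe and at -0.01 by its other probe. The brighter probe turned to -0.02 with normexp, and Ndufa3 was the only 1 of the 17 genes with several probes above background on all 6 arrays whose probes differed in direction. Ndufa4, which is named for complex I and is counted there by its symbol although it is now known as a subunit of complex IV, differed by -0.08 ± 0.08, near the median of complex I. Its paralog Ndufa4l2, a gene induced by low oxygen, measured 0.520, 0.503 and 0.678 in the control mice and 0.751, 0.533 and 0.630 in LKO. These groups overlapped, and its difference of 0.17 ± 0.17 was the highest of complex I and as large as its standard error.

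In complex II, all 4 of 4 subunits were lower, and the median was -0.21, which is 1.15-fold lower. Each had every LKO mouse below every control, beside 9.21% of all genes. At an unadjusted p under 0.05, 2 of the 4 were lower, beside 5.6% of all genes. Succinate dehydrogenase is also an enzyme of the citric acid cycle, and its flavoprotein Sdha and iron-sulfur protein Sdhb sit on the membrane anchors Sdhc and Sdhd, where ubiquinone is reduced. Sdhd measured 72.4, 76.4 and 67.3 in control 1, 2 and 3 and 60.9, 56.5 and 58.6 in LKO 1, 2 and 3, a log2 difference of -0.29 ± 0.09 (limma adjusted p of 0.312). Sdhc measured 18.6, 17.2 and 16.8 in the control mice and 14.5, 16.3 and 14.3 in LKO, a difference of -0.22 ± 0.09 (limma adjusted p of 0.441). Both anchors were thus lower in LKO, although LKO 2 came close to control 3 for Sdhc.

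Sdha measured 35.7, 37.0 and 33.6 in the control mice and 33.2, 29.7 and 30.2 in LKO, and LKO 1 lay just below control 3. Its difference was -0.19 ± 0.09 (limma adjusted p of 0.494) by the brighter probe and -0.31 by the other. Sdhb measured 125, 116 and 124 in the control mice and 112, 113 and 110.3 in LKO, and its 2 probes gave -0.12 ± 0.08 and -0.11 (limma adjusted p of 0.627 for the first). With 4 genes, the complex II median is not set apart from those of the other complexes by any test made here.

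In complex III, 9 of 9 nuclear subunits had a negative difference, with a median of -0.14 and a range of -0.18 to -0.0047. In 6 of 9 (66.7%) every LKO mouse lay below every control, beside 9.21% of all genes. At an unadjusted p under 0.05, 0 were lower, beside 5.6% of all genes, and 0 were higher. Without control 1 the median of the complex was -0.10. Uqcrc1 and Uqcrc2, the core proteins that face the matrix, measured 40.2, 39.9 and 41.7 and 49.3, 49.9 and 49.2 in the controls. In LKO 1, 2 and 3 they measured 37.1, 36.4 and 34.5 and 43.2, 45.8 and 43.9. Neither gene's groups overlapped, and the differences were -0.17 ± 0.08 and -0.16 ± 0.08 (limma adjusted p of 0.480 and 0.498), the latter -0.10 with normexp.

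Among the small complex III subunits, Uqcr10 measured 135, 132 and 122 in the control mice and 112, 111 and 120.1 in LKO, a difference of -0.18 ± 0.08. Uqcrb, which lines the ubiquinone site, measured 107, 96.2 and 97.1 in the control mice and 88.3, 90.7 and 86.8 in LKO, a difference of -0.17 ± 0.08 by the brighter probe and -0.09 by the other. In both genes the groups lay apart by little, with LKO 3 just below control 3 for Uqcr10. Uqcrq, the ubiquinone-binding subunit, measured 412, 383 and 386 in the control mice and 390.3, 397 and 389 in LKO. These groups overlapped, and its difference of -0.0047 depended on the scaling, at -0.12 with quantile normalization and -0.11 with normexp. The remaining complex III genes are Cyc1 (cytochrome c1), Uqcrfs1 (the Rieske iron-sulfur protein), Uqcrh (the hinge protein) and Uqcr11, and their differences lay between -0.14 and -0.06.

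In complex IV, 12 of the 14 tested subunits were lower, with a median of -0.11, which was -0.07 without control 1. In 7 of the 14 (50%) every LKO mouse lay below every control, beside 9.21% of all genes. At an unadjusted p under 0.05, 1 of the 14 was lower, Cox7a1, beside 5.6% of all genes. Among the 7 without overlap, Cox7c was at -0.18 by its brighter probe and at -0.00099 by its other probe. Complex IV has more tissue isoforms than the other complexes, so they are described apart. Without the isoforms of other tissues, 8 of 10 subunits were lower and the median was -0.09. Cox6b1, which faces the cytochrome c side, measured 16.4, 16.3 and 15.7 in the control mice and 14.1, 15.0 and 13.2 in LKO, a difference of -0.20 ± 0.08 (limma adjusted p of 0.461). Cox5a, a subunit on the matrix side, measured 179, 181 and 177 in the control mice and 161, 165 and 159.9 in LKO. Cox7b measured 73.1, 75.4 and 74.4 in the control mice and 65.6, 69.6 and 64.8 in LKO. None of these groups overlapped, and the differences of Cox5a and Cox7b were -0.15 ± 0.07 and -0.16 ± 0.08.

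Other housekeeping subunits of complex IV had smaller differences. Cox4i1, the regulatory subunit that binds adenine nucleotides, measured 152, 142 and 142 in the control mice and 138, 139 and 132 in LKO, a difference of -0.09 ± 0.08 with no overlap between the groups. Cox6a1 and Cox8a, the liver forms of 2 subunits with a muscle form, differed by 0.04 ± 0.10 and -0.07 ± 0.08, and the sign of Cox6a1 turned under quantile normalization (-0.07), normexp (-0.06) and scaling by the median (-0.0037). Cox8a was at -0.17 with quantile normalization and -0.15 with normexp. Cox7a2, the liver form of subunit VIIa, differed by -0.0054 ± 0.08, and Cox7a2l, which joins complexes III and IV into supercomplexes, by 0.06 ± 0.09. The groups of Cox6a1, Cox8a, Cox7a2 and Cox7a2l overlapped.

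Cox7a1, the heart and skeletal muscle form of subunit VIIa, had the lowest adjusted p of the 82 genes. It measured 1.98, 2.01 and 2.20 in control 1, 2 and 3 and 1.20, 1.04 and 1.40 in LKO 1, 2 and 3, so that the lowest control lay above the highest LKO mouse. The log2 difference was -0.77 ± 0.13, which is 1.70-fold lower, with an unadjusted p of 0.000563 and a limma adjusted p of 0.162. Over the alternatives tried the difference ran from -0.88 to -0.63 and the adjusted p from 0.0839 to 0.760, the highest with the slide column as a covariate. Control 3, the array with high muscle markers, was at 2.20 against 1.98 and 2.01 in the other controls, and without it the difference was -0.72.

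Cox6a2 and Cox8b, the muscle forms of subunits VIa and VIII, followed another pattern. Cox6a2 measured 0.132, 0.175 and 1.43 in control 1, 2 and 3 and 0.153, 0.197 and 0.191 in LKO. Cox8b measured 0.0564, 0.0424 and 0.815 in the control mice and 0.0371, 0.0670 and 0.0210 in LKO, and was well above background on control 3 alone. Both were high on the single array on which the muscle genes Tnni2 (0.171, 0.206 and 4.91 in the controls) and Acta1 (0.0602, 0.0431 and 2.27) were high. The Cox6a2 difference of -0.84 ± 0.85 was 0.24 without control 3.

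The complex IV isoforms known from other tissues were otherwise low. Cox4i2, the lung form, measured 1.38, 1.27 and 1.19 in the control mice and 1.13, 1.22 and 1.16 in LKO, and Cox6b2, the testis form, 0.533, 0.388 and 0.386 in the control mice and 0.434, 0.433 and 0.400 in LKO. Their differences of -0.13 ± 0.09 and -0.03 ± 0.14 lay within the overlap of the groups. Cox7b2 was well above background on 1 control array and 0 LKO arrays, and Cox8c on 0 arrays of either group. At that low level Cox7b2 measured 0.0709, 0.0622 and 0.0633 in the control mice and 0.0464, 0.0420 and 0.0444 in LKO. Its log2 difference of -0.56 was not tested.

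**Figure D4:**
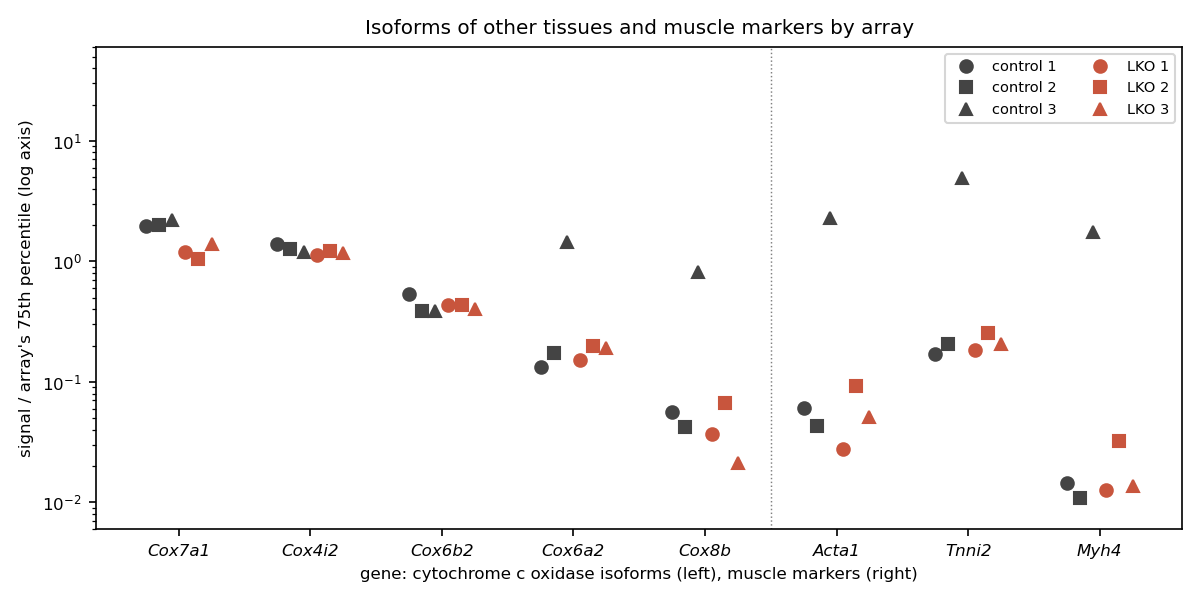
Signal over the array's 75th percentile (log axis) of 5 cytochrome c oxidase isoforms and 3 muscle markers in each of the 3 control and 3 LKO mice. Cox7a1 lies lower in every LKO mouse, while Cox6a2 and Cox8b are high in control 3 only, as are Acta1, Tnni2 and Myh4.

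In complex V, 16 of the 17 subunits were lower, with a median of -0.11 and a range of -0.21 to 0.06. In 11 of the 17 (64.7%) every LKO mouse lay below every control, beside 9.21% of all genes. At an unadjusted p under 0.05, 4 were lower, beside 5.6% of all genes. The 4 peripheral stalk subunits, which hold the catalytic head still, were all lower with a median of -0.15, as were the 3 genes of the rotating c ring with -0.17 and the 5 other membrane subunits with -0.10. Of the 5 subunits of the head and central stalk, 4 were lower, with a median of -0.08.

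Atp5a1, the alpha subunit of the head, measured 226, 224 and 226 in control 1, 2 and 3 and 195, 197 and 190.0 in LKO 1, 2 and 3. Its groups were far apart for their spread, by -0.21 ± 0.07 (limma adjusted p of 0.373), and its other probe gave -0.29. The beta subunit Atp5b, which holds the catalytic sites, differed by -0.08 ± 0.07 by its brightest probe and by -0.18 and -0.28 by its other probes. Atp5e, the epsilon subunit of the stalk, was the single complex V gene above 0, at 0.06 ± 0.09, and its sign turned with normexp (-0.03).

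Among the stalk genes, Atp5pb (subunit b) measured 88.2, 82.7 and 80.0 in the control mice and 72.0, 73.4 and 71.3 in LKO, a difference of -0.21 ± 0.08 (limma adjusted p of 0.416). Atp5o, the oligomycin sensitivity protein that ties the stalk to the head, measured 140.4, 142 and 136 in the control mice and 123, 122 and 123 in LKO, a difference of -0.18 ± 0.07 (limma adjusted p of 0.437). In both genes the other probe gave nearly the same difference, -0.22 for Atp5pb and -0.18 for Atp5o. No LKO mouse reached the lowest control for either gene.

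Atp5g1, Atp5g2 and Atp5g3 encode the same mature c subunit behind different targeting peptides. Atp5g1 measured 149.7, 157 and 158 in the control mice and 129.9, 132 and 139 in LKO, a difference of -0.21 ± 0.08 (limma adjusted p of 0.405). Atp5g3 measured 255, 270.3 and 267 in the control mice and 241, 238 and 226 in LKO, and Atp5g2 measured 91.8, 81.8 and 82.9 in the control mice and 81.7, 80.6 and 79.4 in LKO. All 3 of 3 had every LKO mouse below every control, beside 9.21% of all genes. The difference was -0.17 ± 0.08 in Atp5g3 (-0.26 with quantile normalization and -0.28 with normexp). In Atp5g2 the difference was -0.08 ± 0.08, with only a narrow gap between the groups. Whether a probe also binds the RNA of a near-identical copy was not tested, for these genes and for those with pseudogenes, of which the rule left out 19.

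The genes around the chain were taken from lists of related genes. Of 45 tested assembly factors, which build the complexes without staying in them, 27 were lower and 18 higher, with a median of -0.01, and 5 (11.1%) had every LKO mouse below every control, beside the 9.21% of all genes. Sdhaf3, a factor for the iron-sulfur subunit of complex II, measured 0.606, 0.571 and 0.538 in the control mice and 0.474, 0.444 and 0.427 in LKO, a difference of -0.35 ± 0.09. Ndufaf5, a complex I factor, was at -0.26 ± 0.07, and Coa5, a complex IV factor, was at 0.37 ± 0.12 in the other direction, with 2.73, 2.24 and 2.60 in the control mice and 2.91, 3.55 and 3.31 in LKO. Their counts by direction are nearer to those of all genes than to those of the subunits, and the difference between the lists was not tested.

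Of 18 tested electron carriers and other quinone-linked enzymes, 15 were lower, with a median of -0.13. Of the 18, 6 (33.3%) were lower at an unadjusted p under 0.05, beside 5.6% of all genes, and 7 (38.9%) did not overlap, beside 9.21%. Gpd2, the glycerol phosphate dehydrogenase of the inner membrane, measured 2.55, 2.58 and 1.87 in the control mice and 1.65, 1.25 and 1.29 in LKO, a difference of -0.73 ± 0.17 (limma adjusted p of 0.237). Coq8a, needed for ubiquinone synthesis, measured 21.7, 23.5 and 25.9 in the control mice and 20.3, 15.6 and 11.504 in LKO, a difference of -0.62 ± 0.20, and Coq10a, a ubiquinone-binding protein, was at -0.26 ± 0.08. Both Gpd2 and Coq8a had every LKO mouse below every control and spread more among the mice than the subunits did.

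Of 22 other mitochondrial proteins (import pores, channels, chaperones, carriers and fusion proteins), 18 were lower, with a median of -0.09, and 9 (40.9%) did not overlap, beside 9.21% of all genes. The ADP/ATP carriers Slc25a5 and Slc25a4 were at -0.26 ± 0.09 and -0.25 ± 0.09, and the phosphate carrier Slc25a3, which also supplies ATP synthase, was at -0.21 ± 0.09. Of 15 regulators of respiratory chain genes, 7 were lower and 8 higher, with a median of 0.01, and 0 had an unadjusted p under 0.05. The coactivator Ppargc1a measured 0.750, 1.25 and 0.803 in the control mice and 0.660, 0.536 and 0.914 in LKO, groups that overlapped, at -0.41 ± 0.26 (limma adjusted p of 0.614), and its relative Pprc1 and the corepressor Nrip1 were at 0.33 ± 0.23 and -0.16 ± 0.12. In these 4 lists 0 genes passed an adjusted p of 0.05. The subunits encoded in mitochondrial DNA were matched to 0 probes and were not analysed here.

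**Figure D5:**
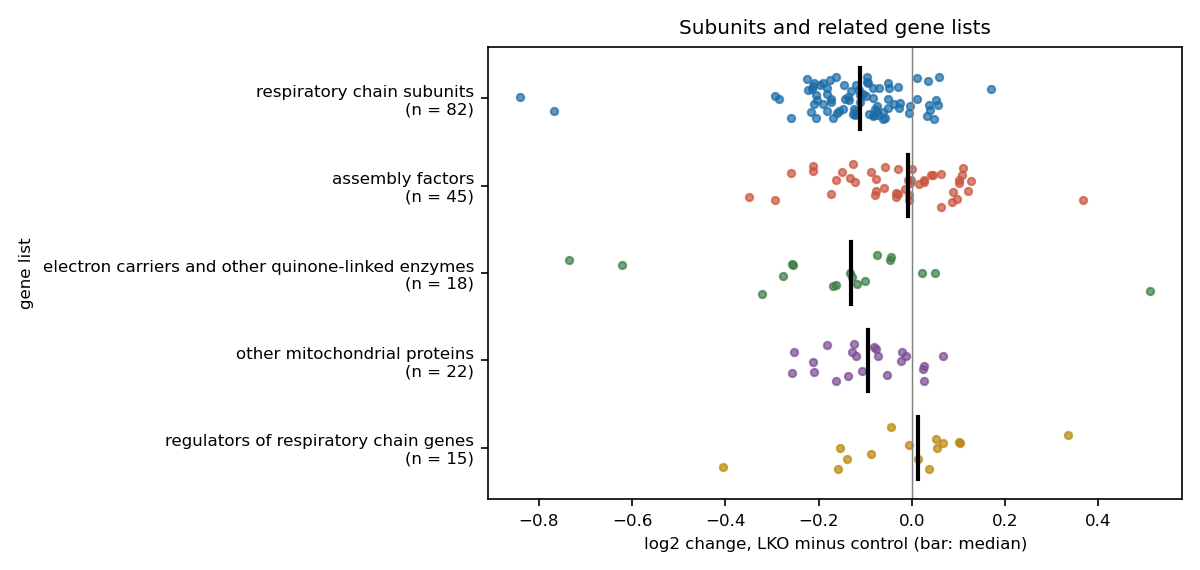
Log2 difference (LKO minus control) of each tested gene in the subunit list and 4 related lists, with black bars for the medians. The medians are -0.11 for the subunits, -0.01 for assembly factors, -0.13 for electron carriers and quinone-linked enzymes, -0.09 for other mitochondrial proteins and 0.01 for regulators.

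The promoters were searched on both strands for exact matches in windows of 300 bases, 250 before and 50 after the gene's start, which 68 of the 85 subunit genes had. The motif GCGCATGC of NRF1, a regulator of many respiratory genes, was in 14.7% of the subunit windows, in 4.77% of the windows of all genes tested and in 2.80% of all 27025 windows. YY1's AAGATGGC was in 13.2%, 4.25% and 2.88%. Of its 9 matches among subunits, 7 were in complex I, which held 33 of the 68 subunit windows. AAGGTCA of the estrogen-related receptors was in 11.8%, 3.61% and 4.66%, and CCGGAAG of the ETS factors with GABPA in 23.5%, 16.2% and 9.12%. The GC box GGGCGG was in 42.6% of subunit windows, below the 57.9% of genes tested and above the 35.9% of all windows, and TATAAA was in 11.8%, above the 9.09% of genes tested and below the 14.2% of all windows. CCAAT was in 44.1%, 38.3% and 37.9%, and TGACGTCA of the CREB factors in 5.88%, 3.05% and 1.88%. In the printed sequences, Ndufa8 holds an NRF1 match that begins 8 bases before the start, Sdhd an ETS match 46 bases before it, Cox7a1 CCAAT matches on the minus strand at 137 and 74 bases, Atp5g1 5 CCAAT matches and Ndufb8 1 GC box.

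The difference between LKO and control was also set out by motif. The median log2 difference was -0.10 in the 10 tested subunits with an NRF1 match and -0.11 in the 56 without one. It was -0.08 in the 16 with an ETS match against -0.12 in 50, and -0.14 in the 8 with AAGGTCA against -0.10 in 58. It was -0.08 in the 9 with the YY1 motif against -0.11 in 57, -0.09 in the 28 with a GC box against -0.12 in 38, -0.11 in the 29 with CCAAT against -0.10 in 37, and -0.10 in the 4 with TGACGTCA against -0.11 in 62. The widest gap was that of TATAAA, at -0.03 in 6 subunits with a match against -0.12 in 60 without. These medians describe the letters in these windows and were not tested, and a short motif can overlap another, as CCAAT does on its own reverse strand in Atp5g1. Across the 82 subunits, the log2 difference had a Spearman correlation of 0.18 with the mean level and of -0.11 with the logarithm of gene length, values that share the same 6 arrays and are given as descriptions.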

How the data were processed

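Liver RNA of 3 control and 3 LKO mice, 1 mouse per array, was labelled with Cy3 from 0.1 µg per the labels' protocols. The scanner images were read with Agilent Feature Extraction 11.5.1.1, per the submitters' processing notes. The processed signal used here is a deposited intensity from which that software had already taken the background, per the file headers. The median spot and local background brightness are intensities deposited without correction. The quality flags are other values, each 0 or 1, that the same software wrote into the deposited files. The authors' deposited value table equals the processed intensity times 1 constant per array (2.08 to 2.48). It is linear, is not centred, has column medians from 55.3 to 63.7 and 0 columns that belong to no sample, and how its constants arose is not given in the sources. Between 52.1% and 56.6% of spots were well above background and 0 were saturated. Precision is limited by how few arrays there are.

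Accessions were matched without versions to the RefSeq table of GRCm38.p6, and 32994 of 56605 probes (58.3%) were named by 1 symbol, 0 by several and 23611 by none. The array design was annotated on an earlier build, so no coordinates of probes are printed. Processed signals were divided by the 75th percentile of their own array and taken to log2, without control spots and without the 64 to 111 outlier spots per array. A gene stood as its brightest probe, and it entered the test if all 3 arrays of a group measured it well above background. The groups were compared with lmFit and eBayes (limma 3.58.1, R 4.3.3), two-sided, with Benjamini-Hochberg adjustment over 14171 genes. The code was tested on simulated data. P-values measure the spread between mice handled together on 1 slide. Same-numbered mice were not treated as pairs, since the correlations of their deviations were 0.04, -0.05 and -0.07. Normexp used the median foreground signal. No list was tested as a set.

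Named with values were, in each complex, up to 4 genes with the smallest p and those with the highest and lowest difference, all Sdh genes, the isoforms, genes not above background, genes whose probes differed in direction, and up to 3 genes of each other list by p. Cox7c was added because its probes differed in size. The genes and lists were chosen with earlier results of these data known. Other markers checked were lymphocyte, endothelial, stellate and bile duct genes, of which 4 of 7, 4 of 10, 5 of 10 and 2 of 5 tested were higher in LKO. Alternatives were quantile normalization, scaling by the median, normexp, the authors' table, other filters on dim probes, the mean of probes, trend and robust eBayes, a replicate block, the slide column and each mouse left out.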

Additional observations from a re-analysis of the deposited data

How the results depend on the processing

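Over the 16 alternatives the number of lower subunits ran from 66 to 79 of 82, and the number past the adjusted threshold was 0 in each. The number with every LKO mouse below every control ran from 41, with the authors' table, to 60, without LKO 2. Of all genes, 7.53% lay so with the authors' table and 13.7% without LKO 2, beside 9.21% in the main fit. At an unadjusted p under 0.05 (limma), 15 subunits were lower in the main fit, beside 5.6% of all genes. This unadjusted count of subunits was 23 with quantile normalization, beside 6.05% of all genes, and 22 with normexp, beside 5.998%. It was 25 with trend and robust eBayes, beside 5.74%, and 11 with the authors' table, beside 4.76%. Without a filter on dim probes it was 9 of 85, beside 3.57%. Leaving out 1 mouse gave 4 to 8. The median log2 difference was -0.13 with the slide column as a covariate, which leaves LKO 1 alone against the controls. With the replicate number as a block, 4 subunits (4.88%) were lower at an unadjusted p under 0.05, beside 4.69% of all genes. That block gave 3 genes of all past the adjusted threshold. Of all genes tested, 2 passed that threshold, and 1 with no filter, 1 with only genes above background on all 6 arrays, 13 with trend and robust eBayes, 1 with the slide column and 1 to 15 with 1 mouse left out. Scaling by the array median, which moved the median of all genes to -0.04 and the share of lower genes to 59.1%, gave a median of -0.15 for all subunits, for complex IV and for complex V. Complex V was also at -0.15 with quantile normalization and with normexp, and complex IV at -0.16 with the slide column. With 1 mouse left out, the medians ran from -0.13 to -0.08 for all subunits, -0.16 to -0.10 for complex III, -0.13 to -0.070 for complex IV and -0.14 to -0.077 for complex V. Counting Ndufa4 and Ndufa4l2 with complex IV moved neither complex by more than the spread between mice. Signs turned in genes near 0 and in Cox6a2. Cox6a1 turned with quantile normalization (-0.074), scaling by the median (-0.0037), normexp (-0.058) and the slide column (-0.021), Atp5e with normexp (-0.027) and the slide column (-0.043), and Ndufa3 with the same settings (-0.024 and -0.00054). Cox6b2 (0.013) and Cox7a2l (-0.013) turned with the slide column. With 1 mouse left out, Cox6a1 ran from -0.035 to 0.10, Cox6b2 from -0.11 to 0.13, Cox7a2 from -0.018 to 0.018, Uqcrq from -0.025 to 0.029 and Cox6a2 from -1.48 to 0.24, the last without control 3. The causes were not tested.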
